A study of Mus musculus with 6 samples.

Results

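The circadian clock genes described here are the 10 genes *Arntl*, *Clock*, *Per1*, *Per2*, *Per3*, *Cry1*, *Cry2*, *Nr1d1*, *Nr1d2* and *Dbp*, taken by gene symbol from a table of 23951 genes. All 10 were found, and all 10 were among the 17021 genes that entered the test. They were measured in whole skin of 3 control mice, labelled JunB +/+, and 3 JunBΔep mice, labelled JunB dep. In the JunBΔep mice *Junb*, a gene of the AP-1 transcription factor family, is deleted in cells that express keratin 5, so cells of the sample that do not express keratin 5 or descend from such cells, among them those of dermis, fat and muscle, keep the gene. The mice were littermates on the C57Bl/6 strain, 6 to 7 months old by the labels, and carried no stated treatment; the study used both sexes, and the sex of each mouse is not given. The skin of the JunBΔep mice was taken from lesions. Poly(A) RNA was sequenced, and the values are FPKM, fragments per kilobase of transcript scaled by the mapped fragments of the library, so levels of different genes can be set beside each other. The sources used here do not give the time of day at which the skin was taken. Mice are named by genotype and by the replicate number of the labels, 0, 1 or 2, and the values of a group are given in that order.

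The molecular clock is a feedback loop of transcription that runs in most cells and has a period of about a day. *Arntl* (also called *Bmal1*) and *Clock* encode the pair of factors that binds E-box elements and switches on the *Per*, *Cry* and *Nr1d* genes and *Dbp*. PER and CRY proteins then inhibit that pair, while the nuclear receptors NR1D1 and NR1D2 (REV-ERB alpha and beta) repress *Arntl* through elements they share with the ROR receptors, and DBP acts on D-box elements. The transcripts therefore peak at different hours, with *Arntl* far from *Nr1d1* and *Dbp*. Keratinocytes, hair follicles, fibroblasts, fat cells and skeletal muscle, which are all found in a piece of skin, each run this clock.

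The elements through which the loop works are shown first, because the genes that carry them are those whose levels are described below. Promoter windows from RefSeq, which span 250 bases before to 50 after a gene's start, held 9 of the 10 genes in 13 windows, and *Per2* was not matched. All 13 windows were found once each on mm9, the build to which the reads were aligned, and positions are given on that build. Both strands were searched for the E-box (CACGTG), the E′-box (CACGTT), the D-box (TTATGTAA), the core of the ROR element (AGGTCA) and the AP-1 site (TGAGTCA); none of these letter strings contains another. Each stretch is written 5′ to 3′ on the strand of its gene, with the matches in capitals, and positions are counted from the RefSeq start, with -1 as the base before it.

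The stretch of *Per3* holds 2 D-boxes at -205 to -198 and -158 to -151, and lies at chr4:150418905-150418999 on the minus strand.
Per3: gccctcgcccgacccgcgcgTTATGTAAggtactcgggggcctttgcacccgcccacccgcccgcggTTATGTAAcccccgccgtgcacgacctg
The stretch of *Cry1* holds an E′-box on the opposite strand at -79 to -74 and an E-box at -60 to -55, and lies at chr10:84647832-84647904 on the minus strand.
Cry1: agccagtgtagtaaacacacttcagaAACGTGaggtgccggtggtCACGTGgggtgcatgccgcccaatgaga
The stretches of *Cry2* (chr2:92274365-92274414, minus strand) and *Nr1d1* (chr11:98636692-98636757, minus strand) each hold an E′-box on the opposite strand.
Cry2: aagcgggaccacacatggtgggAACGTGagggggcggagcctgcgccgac
Nr1d1: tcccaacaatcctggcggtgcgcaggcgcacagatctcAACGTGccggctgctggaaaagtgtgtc
That of *Per1* (chr11:68912263-68912330, plus strand) holds an E-box and, on the opposite strand, a ROR element core.
Per1: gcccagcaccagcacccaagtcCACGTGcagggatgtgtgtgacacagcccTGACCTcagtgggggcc
Those of *Nr1d2* (chr14:19071670-19071719, minus strand) and *Arntl* (chr7:120351044-120351073, plus strand) hold a ROR element core.
Nr1d2: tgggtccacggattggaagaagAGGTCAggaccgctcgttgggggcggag
Arntl: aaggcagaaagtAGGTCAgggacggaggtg

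In the GENCODE annotation of mm9, the stretch of *Arntl* lies in an exon, in the UTR, and its ROR element core is at 32 to 37 of the second RefSeq window, counted from the start. That of *Per1* lies inside the gene but in no exon, and the other 5 lie in no annotated gene. Of all 32851 RefSeq promoter windows, 7.15% held an E-box, 4.68% an E′-box, 0.938% this D-box and 16.3% the ROR element core. Of the 13 windows of the clock genes, 2 held the E-box, 3 the E′-box, 1 the D-box and 4 the ROR element core, which besides those shown is also in a window of *Clock*. The AP-1 site was found in 0 of the 13 windows and in 5.2% of all windows. These matches are letters in a short window and do not show binding.

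The libraries were not alike. *Junb* had 59.3, 72.4 and 56.9 FPKM in the controls and 42.8 and 28.0 FPKM in replicates 1 and 2 of the JunBΔep group. The library labelled JunBΔep replicate 0 had 130 FPKM, above every control, so that the targeted gene goes against this label. That library also held mucosal keratins and related genes at a sum of 3798 FPKM over 5 markers, against at most 1.41 FPKM in any other mouse, and *S100a8*, which neutrophils and inflamed keratinocytes express, at 24456 FPKM against at most 744 FPKM. Of the other 4 neutrophil markers, *Csf3r*, *Cxcr2* and *Trem1* were highest there, at 22.3 to 44.3 FPKM against at most 3.70 FPKM, and *Il1r2* was below every control, at 57.8 FPKM against 61.8 to 92.4 FPKM. The 15 skeletal muscle markers summed to 23714 to 32604 FPKM in control skin against 2267 to 5497 FPKM in the JunBΔep libraries, and 12 of the 15 were called lower. In limma no gene at all was called once the replicate number or the number series was a block, or without any 1 control or JunBΔep replicate 1, so these calls are lost there. The epidermal markers were present in all mice (sums of 7987 to 13618 FPKM), except that *Krt14* was listed at 0 in the library labelled JunBΔep replicate 0, where *Krt5* was at 3725 FPKM. Liver markers summed to 1665 FPKM in control replicate 0 and at most 29.5 FPKM elsewhere. The 8 hair follicle markers summed to 4.14, 5.04 and 3832 FPKM in control skin against 320, 6340 and 99.7 FPKM in JunBΔep skin, so they differed widely within both groups, and their part in the levels of the clock genes was not tested. Because whole skin was sequenced, fewer cells of a type and less RNA per cell cannot be told apart. The number of reads per mouse is unknown.

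None of the 10 clock genes was called different between JunBΔep and control skin by limma at an adjusted p of 0.05. Over all tested genes 1.38% were called lower and 0% higher in JunBΔep skin. Before adjustment, limma gave 1044 genes lower and 243 higher at a p below 0.05. The lowest adjusted p among the clock genes was 0.626 from limma, for *Arntl*. In this fit it was also the only member with an unadjusted p below 0.05, a level reached by 7.56% of all genes. In mean log2 change 6 members were negative and 4 positive, and their median was -0.43 against 0.03 over all tested genes. Without the library labelled JunBΔep replicate 0 the median was -0.14, with 7 negative and 3 positive. *Arntl* and *Nr1d2* lay below every control in all 3 JunBΔep mice, where 9.16% of all genes did so, and *Per2* lay above every control in all 3, where 5.62% of all genes did so. Each of these 3 genes had an exact permutation p of 0.1 (two-sided), the smallest that 3 mice against 3 allow.

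**Figure D1:**
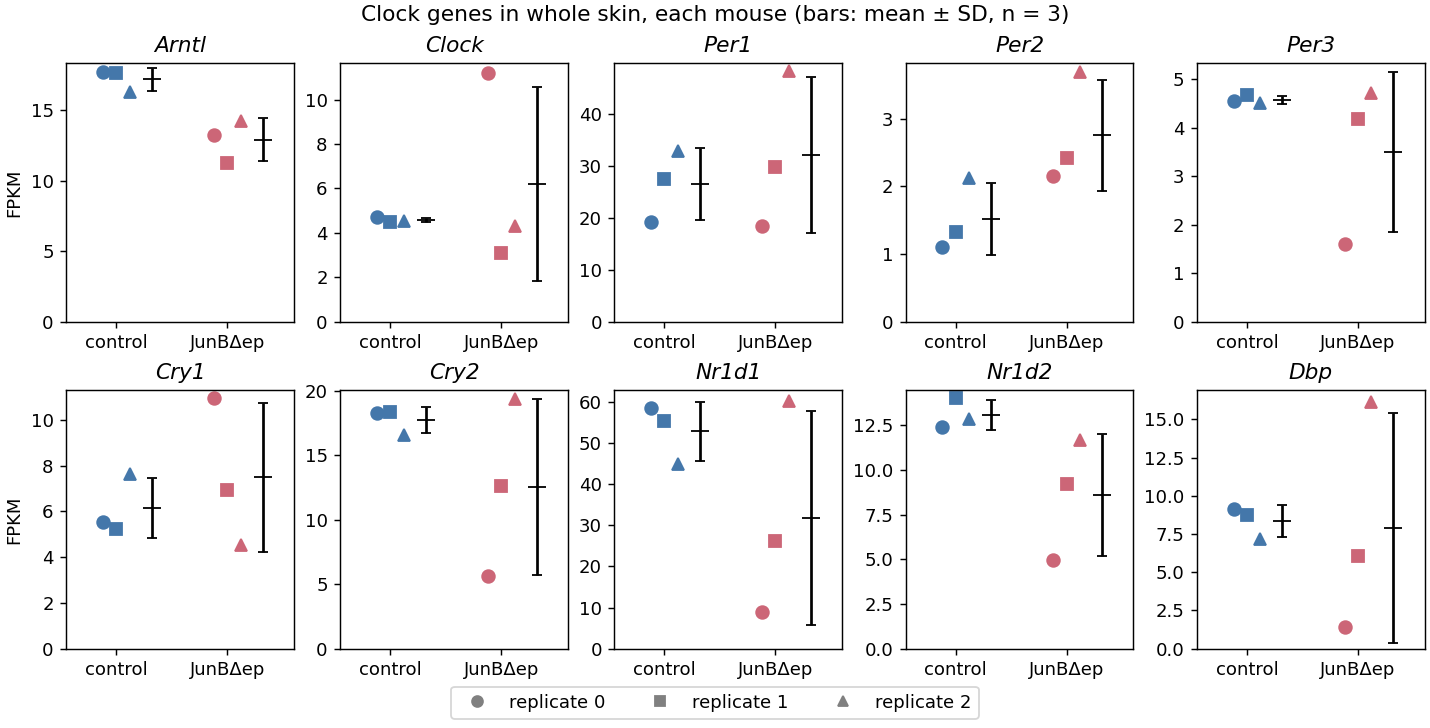
FPKM (vertical axis, from 0) of each of the 10 clock genes in the 3 control and 3 JunBΔep mice, with the replicate number as the marker shape and bars for the mean and SD (n = 3). *Arntl* and *Nr1d2* are below every control in all 3 JunBΔep mice and *Per2* is above. The JunBΔep mice lie on both sides of the controls for *Clock*, *Per1*, *Per3*, *Cry1*, *Cry2*, *Nr1d1* and *Dbp*.

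The JunBΔep mice differed among themselves more than the controls did. On the log2(FPKM + 0.5) scale the SD was larger in the JunBΔep group for 9 of the 10 clock genes, all but *Per2*, and for 74.2% of all genes. The median SD of the members was 0.13 in controls and 0.70 in JunBΔep mice, against 0.22 and 0.38 over all tested genes. Leaving out the library labelled JunBΔep replicate 0 left the SD of the other JunBΔep mice larger for 9 of 10 members and for 56.2% of all genes. The library labelled JunBΔep replicate 0 was below every control for 7 members and above every control for 3, where 39.3% and 37.4% of all genes were. JunBΔep replicate 1 was below every control for 7 and above for 1 (33.1% and 34.5% of all genes), and JunBΔep replicate 2 was below for 4 and above for 6 (21.3% and 25.1% of all genes).

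**Figure D2:**
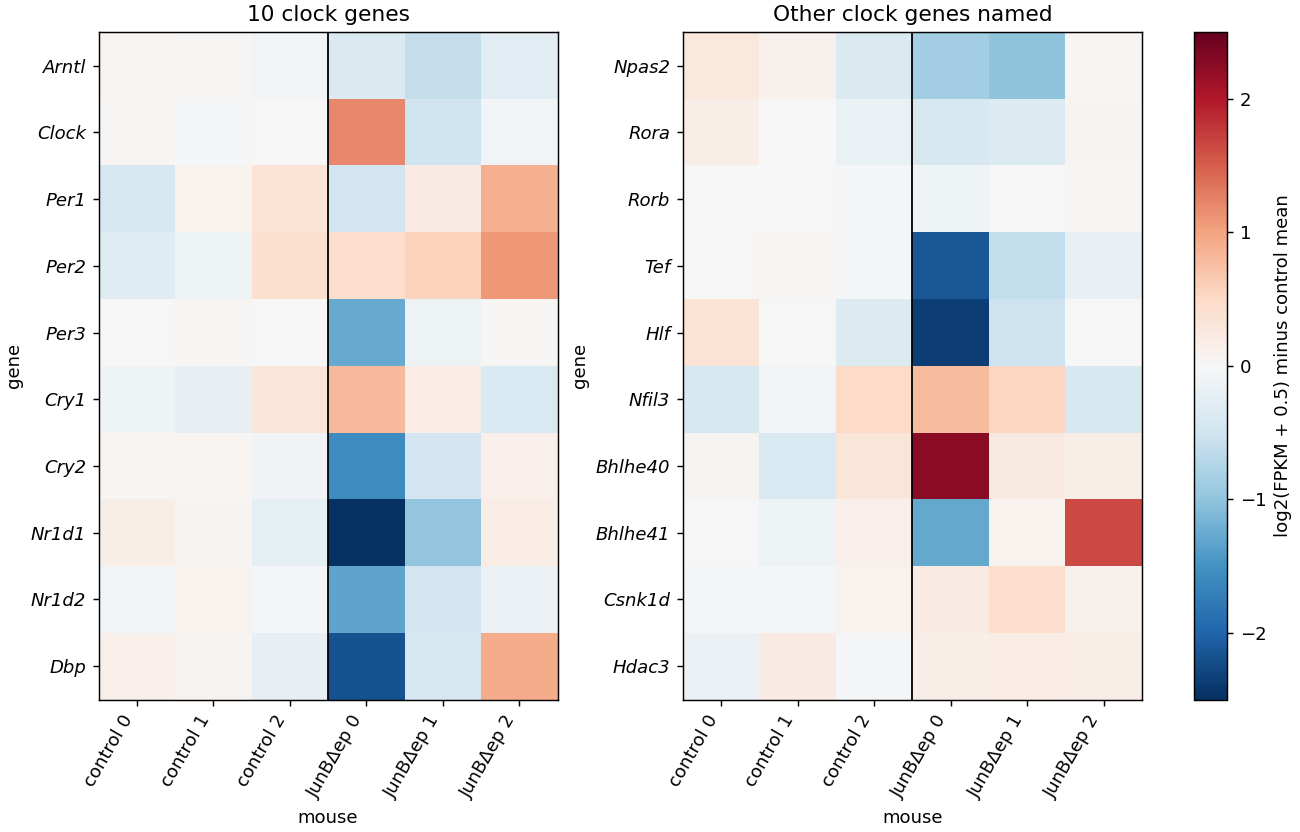
Difference of log2(FPKM + 0.5) from the control mean (colour, red higher and blue lower) for the 10 clock genes (left) and the 10 other clock genes named in the text (right) in each mouse. The column of the library labelled JunBΔep replicate 0 holds the deepest blue, at -2.48 for *Nr1d1*, and that of JunBΔep replicate 2 is red for *Dbp*, *Per1* and *Per2*.

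By level in control skin, the order was *Nr1d1*, *Per1*, *Cry2*, *Arntl*, *Nr1d2*, *Dbp*, *Cry1*, *Clock*, *Per3* and *Per2*. The means ran from 52.9 ± 7.19 FPKM (SD, n = 3) for *Nr1d1* to 1.52 ± 0.534 FPKM for *Per2*. The ranges of the 3 mice overlapped between *Cry2* and *Arntl*, between *Dbp* and *Cry1* and between *Clock* and *Per3*, and the other neighbours in this order did not overlap.

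The activators were *Arntl* and *Clock*. *Arntl* (ENSMUSG00000055116, chromosome 7, 120350979 to 120457636 on mm9) measured 17.7, 17.6 and 16.3 FPKM in control skin against 13.2, 11.3 and 14.3 FPKM in JunBΔep skin. The groups did not overlap, and the JunBΔep mean of 12.9 ± 1.52 FPKM (SD, n = 3) stood beside 17.2 ± 0.810 FPKM in control skin. Its log2 fold change was -0.41 (standard error 0.16, 95% interval -0.79 to -0.02, adjusted p = 0.626 from limma). Leaving out any 1 mouse gave values between -0.48 and -0.31, and over all alternatives the adjusted p from limma ranged from 0.237 to 0.957. Within the number series of the sample names, which the labels do not explain, it was -0.40 in the series that begins with 23 (control replicates 0 and 1 and the library labelled JunBΔep replicate 0) and -0.35 in that with 27 (control replicate 2 and JunBΔep replicates 1 and 2).

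*Clock* (ENSMUSG00000029238, chromosome 5, 76639992 to 76733817), the DNA-binding partner of ARNTL, did not separate the groups. It was at 4.70, 4.50 and 4.56 FPKM in control skin against 11.2, 3.10 and 4.33 FPKM in JunBΔep skin. The SD of the controls was 0.104 FPKM, the library labelled JunBΔep replicate 0 was above all of them, and the other JunBΔep mice were below. Its log2 fold change was 0.21 (95% interval -0.88 to 1.30, adjusted p = 0.879 from limma), and without the library labelled JunBΔep replicate 0 it was -0.29.

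The *Per* genes encode repressors that act with CRY proteins on the ARNTL and CLOCK pair, and *Per1* and *Per2* also respond quickly to outside signals such as glucocorticoids. *Per1* (ENSMUSG00000020893, chromosome 11, 68908719 to 68923462) measured 19.1, 27.4 and 32.9 FPKM in control skin against 18.4, 29.8 and 48.2 FPKM in JunBΔep skin. The groups overlapped, and the lowest and the highest of the 6 mice were both JunBΔep libraries. Its log2 fold change was 0.20 (95% interval -0.74 to 1.15, adjusted p = 0.863 from limma).

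*Per2* (ENSMUSG00000055866, chromosome 1, 93312561 to 93355907), the member with the lowest level, measured 1.10, 1.32 and 2.12 FPKM in control skin against 2.16, 2.42 and 3.69 FPKM in JunBΔep skin. All 3 JunBΔep mice lay above all controls, though the lowest of them was only just above control replicate 2. The log2 fold change was 0.69 (standard error 0.30, 95% interval -0.04 to 1.42, adjusted p = 0.681 from limma), and leaving out any 1 mouse gave 0.50 to 0.90. It was 0.63 in the series of sample names that begins with 23 and 0.42 in that with 27. The added 0.5 FPKM is a large part of these low values, and with 0.1 FPKM in its place the log2 fold change was 0.83.

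*Per3* (ENSMUSG00000028957, chromosome 4, 150377761 to 150418774), whose window holds the D-boxes shown above, measured 4.55, 4.68 and 4.52 FPKM in control skin against 1.61, 4.18 and 4.72 FPKM in JunBΔep skin. Only the library labelled JunBΔep replicate 0 stood far from the controls. On the log2 scale the difference was -0.45 with all mice (adjusted p = 0.722 from limma) and -0.04 without that library.

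The *Cry* genes encode the proteins that block the activators most directly. *Cry1* (ENSMUSG00000020038, chromosome 10, 84594447 to 84647799) measured 5.56, 5.22 and 7.64 FPKM in control skin against 10.97, 6.94 and 4.55 FPKM in JunBΔep skin. *Cry2* (ENSMUSG00000068742, chromosome 2, 92243803 to 92274200) ran the other way within the JunBΔep mice, at 18.2, 18.3 and 16.6 FPKM in control skin against 5.63, 12.6 and 19.3 FPKM. *Cry1* was highest and *Cry2* lowest of the 6 mice in the library labelled JunBΔep replicate 0, and the reverse was so in JunBΔep replicate 2. The ratio of *Cry2* to *Cry1*, which the scaling of a library does not affect, was 3.28, 3.51 and 2.17 in controls and 0.513, 1.81 and 4.24 in JunBΔep skin. The log2 fold changes were 0.20 for *Cry1* and -0.64 for *Cry2* (adjusted p = 0.84 and 0.722 from limma). They were -0.10 and -0.18 without the library labelled JunBΔep replicate 0, and 0.49 and -1.02 without JunBΔep replicate 2. Within the series of sample names they were 0.96 and -1.62 for names that begin with 23 and -0.41 and -0.09 for those with 27.

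The nuclear receptor *Nr1d1* (ENSMUSG00000020889, chromosome 11, 98629246 to 98636647) was the most abundant member in control skin. With all mice it had the largest mean log2 change of the 10 genes. It was at 58.6, 55.3 and 44.8 FPKM in control skin against 9.03, 26.2 and 60.2 FPKM in JunBΔep skin. JunBΔep libraries 0 and 1 were below every control and JunBΔep replicate 2 was above every control, so the groups overlapped. The log2 fold change was -1.09 (standard error 0.64, 95% interval -2.66 to 0.48, adjusted p = 0.722 from limma). It was -0.40 without the library labelled JunBΔep replicate 0, where *Per2* at 0.83 had the largest change, and -1.73 without JunBΔep replicate 2. Within the series of sample names it was -2.59 for names that begin with 23 and -0.17 for those with 27.

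*Nr1d2* (ENSMUSG00000021775, chromosome 14, 19036568 to 19071641), its paralog, measured 12.4, 14.0 and 12.8 FPKM in control skin against 4.95, 9.19 and 11.7 FPKM in JunBΔep skin. The order of the JunBΔep mice was that of *Nr1d1*, but here all of them were below all controls. Its log2 fold change was -0.65 (standard error 0.32, 95% interval -1.43 to 0.12, adjusted p = 0.719 from limma), and -0.32 without the library labelled JunBΔep replicate 0. The ratio of *Nr1d1* to *Arntl*, its target for repression, was 3.31, 3.14 and 2.75 in controls and 0.682, 2.33 and 4.22 in JunBΔep skin.

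*Dbp* (ENSMUSG00000059824, chromosome 7, 52960458 to 52965525) encodes a PAR bZIP factor that passes the rhythm on to output genes, and its transcript is among the most strongly cycling in many tissues. It was at 9.11, 8.73 and 7.16 FPKM in control skin against 1.44, 6.07 and 16.1 FPKM in JunBΔep skin. The lowest and the highest of the 6 mice were both JunBΔep libraries. On the log2 scale the difference was -0.56 (95% interval -2.39 to 1.26, adjusted p = 0.801 from limma), and 0.25 without the library labelled JunBΔep replicate 0. It was -2.28 within the series of sample names that begins with 23 and 0.45 within that with 27.

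**Figure D3:**
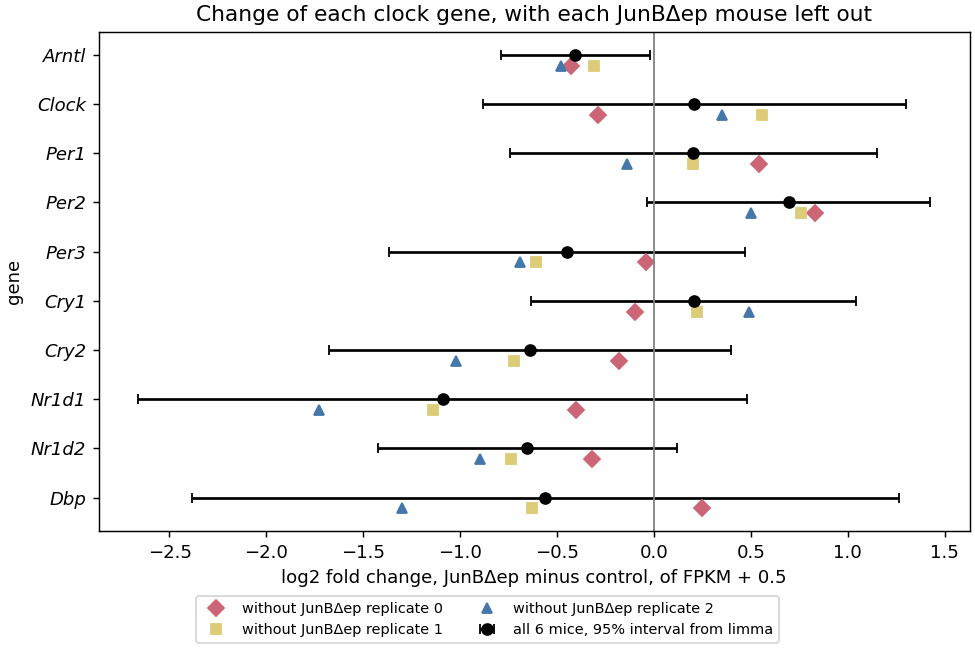
Log2 fold change of FPKM + 0.5, JunBΔep minus control (horizontal axis), of each clock gene, with its 95% interval from limma (black) and the value with each JunBΔep mouse left out (coloured markers). *Arntl*, *Per2*, *Per3*, *Cry2*, *Nr1d1* and *Nr1d2* keep their side of 0 whichever JunBΔep mouse is left out. *Clock*, *Cry1* and *Dbp* cross 0 without the library labelled JunBΔep replicate 0, and *Per1* without JunBΔep replicate 2.

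The summed level of fat cell genes was lowest and highest in the same mice as *Nr1d1* and *Dbp*. The 6 adipocyte markers (*Adipoq*, *Plin1*, *Cidec*, *Lep*, *Adig* and *Cfd*) summed to 1604, 2894 and 1005 FPKM in control skin against 15.8, 1140 and 6906 FPKM in JunBΔep skin, and none of the 6 was called or at 0 in any mouse. Their sum was lowest in the library labelled JunBΔep replicate 0 and highest in JunBΔep replicate 2, as *Dbp* and *Nr1d1* were. Of the 6 markers *Lep*, which encodes leptin, was the exception, at 33.1 FPKM in JunBΔep replicate 2 and at 35.0 to 125 FPKM in control skin. *Adipoq*, the fat cell hormone adiponectin, was at 1.61 FPKM in that lowest library and at 936 FPKM in JunBΔep replicate 2. The part of fat tissue in the levels of the clock genes was not tested. For *Arntl*, *Nr1d2* and *Per2*, whose groups did not overlap, the skeletal muscle sum is the one of the marker sums that also separated the groups, with all 15 markers below every control in all 3 JunBΔep mice, and their part was not tested either.

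**Figure D4:**
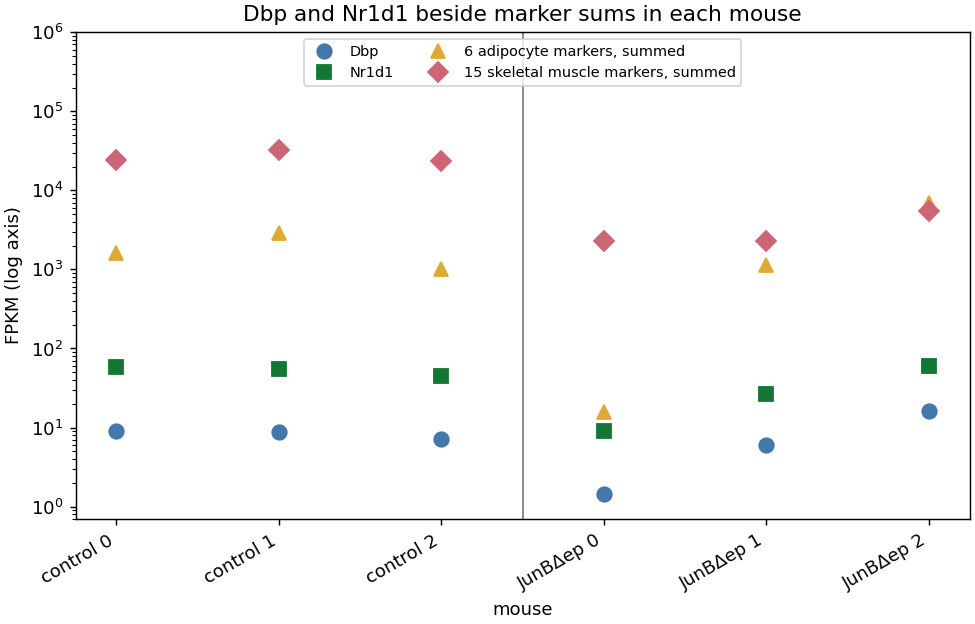
FPKM on a log axis of *Dbp*, *Nr1d1*, the sum of 6 adipocyte markers and the sum of 15 skeletal muscle markers in each mouse. *Dbp*, *Nr1d1* and the adipocyte sum are lowest in the library labelled JunBΔep replicate 0 and highest in JunBΔep replicate 2, while the muscle sum is lower in all 3 JunBΔep libraries.

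Genes with the most similar pattern were looked for by the Pearson correlation of log2(FPKM + 0.5) over the 6 mice, among 13741 other genes whose mean reached 1 FPKM. This is a description with 6 points that share genotype and tissue makeup. For *Dbp* the 5 most alike were *Prkar2b*, *Slc43a1*, *Cd36*, *Cat* and *Phldb1*, at 0.997 to 0.998. *Cd36*, a fatty acid transporter, was at 144, 141 and 94.5 FPKM in control skin against 14.1, 74.0 and 296 FPKM in JunBΔep skin, and *Cat*, which encodes catalase, at 98.8, 89.9 and 70.0 FPKM and 20.4, 60.7 and 152 FPKM. The members closest to *Dbp* were *Cry2* at 0.96, rank 227, *Nr1d1* at 0.95, rank 310, and *Per3* at 0.93, rank 539, and *Cry1* was among the least alike at -0.95, rank 13562.

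For *Arntl* the 5 most alike were *Pkdcc*, *Plcl2*, *Mef2a*, *Serpinf1* and *Lpar1*, at 0.990 to 0.993. *Mef2a*, a transcription factor known from muscle, was at 22.1, 20.9 and 17.6 FPKM in control skin against 12.7, 10.4 and 15.4 FPKM in JunBΔep skin. Of the other 9 members, *Nr1d2* was the closest to *Arntl*, at rank 2016. The level of *Arntl* was also set against each of the other 9 clock genes over the 6 mice, and 0 of these 9 relations passed an adjusted p of 0.05 (lowest adjusted p = 0.5375 for Pearson's r and 0.4458 for Spearman's rho by exact permutation test, two-sided, and no unadjusted p below 0.05). *Arntl* separates the groups, and a relation within the groups was not tested.

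Of 21 further clock genes on a hand-written list, 20 entered the test, and none was called or had an unadjusted p below 0.05 in limma. Their median log2 fold change was 0.13, with 12 positive and 8 negative. The other PAR bZIP factors had the order of *Dbp* in the JunBΔep mice. *Tef* was at 35.4, 36.8 and 34.9 FPKM in control skin against 7.77, 23.1 and 31.4 FPKM in JunBΔep skin, and *Hlf* at 9.29, 7.32 and 5.63 FPKM and 1.01, 4.93 and 7.34 FPKM. All 3 JunBΔep values of *Tef* were below its controls, while those of *Hlf* overlapped.

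Among the receptors that oppose NR1D1, *Rora* stayed between 7.27 and 11.04 FPKM in all mice, and *Rorb*, at most 0.0846 FPKM, was below the filter. Of the E-box repressors, *Bhlhe40* was at 24.0, 17.3 and 28.4 FPKM in control skin against 111, 26.5 and 25.3 FPKM in JunBΔep skin, and *Bhlhe41* at 2.89, 2.59 and 3.18 FPKM and 0.896, 3.12 and 10.04 FPKM. *Bhlhe40* stood out only in the library labelled JunBΔep replicate 0, and *Bhlhe41* was lowest there and highest in JunBΔep replicate 2. *Nfil3*, which competes with DBP for the D-box, was at 13.9, 17.7 and 26.1 FPKM in control skin against 32.6, 27.01 and 14.0 FPKM, so that within the JunBΔep mice its order was the reverse of that of *Dbp*.

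*Npas2*, which can stand in for *Clock*, was at 4.50, 3.98 and 2.78 FPKM in control skin against 1.80, 1.59 and 3.82 FPKM in JunBΔep skin, with overlap. *Csnk1d*, the casein kinase that marks PER proteins and, with *Hdac3*, the most abundant gene of this list in controls, was at 44.0 to 48.4 FPKM in control skin against 49.6 to 62.1 FPKM in JunBΔep skin, a log2 fold change of 0.25 with no overlap (adjusted p = 0.722 from limma).

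Of 6 output genes of the clock, none was called, and *Usp2* had an unadjusted p below 0.05 in limma. *Usp2*, a deubiquitinase whose transcript cycles in many tissues, was at 21.2, 19.9 and 27.9 FPKM in control skin against 10.001, 13.8 and 14.9 FPKM in JunBΔep skin. The groups did not overlap, and the difference on the log2 scale was -0.81 (SE 0.22, limma, adjusted p = 0.303). *Cdkn1a*, the most abundant of the outputs, was at 160 to 180 FPKM in control skin against 184 to 230 FPKM in JunBΔep skin, and *Klf10* at 14.1 to 16.0 FPKM and 20.5 to 55.6 FPKM, both without overlap and with adjusted p-values of 0.722 and 0.677 from limma. Of 8 genes that respond to glucocorticoids, which also act on *Per1*, none was called, 4 had a positive and 4 a negative mean change, and *Mt1* had an unadjusted p below 0.05, at 243, 403 and 261 FPKM in control skin against 778, 634 and 349 FPKM in JunBΔep skin. *Fkbp5* and *Tsc22d3*, both direct targets of the glucocorticoid receptor, overlapped between the groups, at 9.17 to 16.7 FPKM against 9.34 to 17.4 FPKM and at 95.1 to 213 FPKM against 38.5 to 193 FPKM. *Mt2*, the most abundant of this list in JunBΔep skin, was at 258 to 454 FPKM in control skin against 352 to 1171 FPKM in JunBΔep skin.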

How the data were processed

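Whole skin of 3 control and 3 JunBΔep mice was profiled with strand-specific poly(A) libraries. The authors aligned reads to mm9 with TopHat 2.0.10, Bowtie 1.0.0 and SAMtools 0.1.19 and deposited FPKM per gene and mouse. The submitters' processing notes also name Cufflinks, and any further scaling of libraries is not stated. Read counts, on which the authors ran DESeq2, were not analysed here. Reads per mouse are unknown. Low FPKM values share 1 ratio between mice in 14.2% to 17.4% of genes below 0.15 FPKM (to 3 decimals on the log2 scale), which puts the scaling totals at 0.955 to 1.14 times that of control replicate 0. FPKM sums were 481078 to 630363.

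Values were compared as log2(FPKM + 0.5), which understates changes of low genes, with limma 3.58.1 in R 4.3.3 (intensity trend, no block, two-sided, Benjamini-Hochberg adjustment across 17021 genes whose mean reached 0.1 FPKM, threshold 0.05). Figures and the motif search were made with Python 3.11.15 and matplotlib 3.10.9. The procedure was tested on simulated data. The members and gene lists were chosen with earlier results of these data known. Genes named are the 10 members, genes of the lists that were called, had an unadjusted p below 0.05 or were the most abundant of their list, and the 5 genes most alike to *Arntl* and to *Dbp*. Others were chosen after their values were seen, namely *Tef*, *Hlf*, *Rora*, *Rorb*, *Bhlhe40*, *Bhlhe41*, *Nfil3*, *Npas2*, *Klf10*, *Fkbp5*, *Tsc22d3*, *Adipoq*, *Lep*, *Krt5*, *Krt14* and the neutrophil markers. Gene positions are from GENCODE vM1. Alternatives changed the pseudocount (0.1, 1), the filter (none, or a mean of 1 FPKM), the scaling (median ratio, quantile) or the fit (no trend, or robust), put blocks on the replicate number and on the number series of the sample names, left out each mouse in turn, or called at an adjusted p of 0.1. No column was left unused. Some genes of the lists are counted but not reported by name here.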

Additional observations from a re-analysis of the deposited data

How the results depend on the processing

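None of the 10 clock genes was called in either direction under any of the 17 alternatives, and the lowest adjusted p any of them reached was 0.179 from limma, for *Nr1d1* without JunBΔep replicate 2. Which members had an unadjusted p below 0.05 in limma depended on the fit. No member did with the replicate block, only *Per2* did without the intensity trend, and only *Nr1d2* did with the block on the number series. Without JunBΔep replicate 2 *Arntl*, *Cry2*, *Nr1d1* and *Nr1d2* did, where 1842 of all genes were lower and 1282 higher at that level. None of the 9 relations of *Arntl* passed under any alternative run for them. The log2 fold change kept its direction for 6 members (*Arntl*, *Per2*, *Per3*, *Cry2*, *Nr1d1* and *Nr1d2*) in these fits. It changed sign for the other 4. With 1 mouse left out, *Clock* ranged from -0.29 to 0.56, *Per1* from -0.14 to 0.54, *Cry1* from -0.10 to 0.49 and *Dbp* from -1.30 to 0.25. *Clock*, *Cry1* and *Dbp* turned without the library labelled JunBΔep replicate 0, and *Per1* without control replicate 0 (-0.01) or JunBΔep replicate 2. With the number series of the sample names as a block *Per1* was at -0.05, and within the series that begins with 23 at -0.31. Within the series that begins with 27, *Clock* was at -0.28, *Cry1* at -0.41 and *Dbp* at 0.45. The cause of these changes was not tested. Over all genes, 235 were called, against 23 with no filter, 0 with the replicate block, 0 with the block on the number series, and 0 to 254 with 1 mouse left out. It was 0 without any 1 of the control replicates or JunBΔep replicate 1, 135 without the library labelled JunBΔep replicate 0, where 10 were called higher, and 254 when JunBΔep replicate 2 was dropped. At an unadjusted p below 0.05, limma still gave 854 genes lower and 118 higher with the replicate block, 1077 and 446 with the block on the number series, and 731 to 878 and 62 to 272 in the fits with a mouse left out and 0 calls. The replicate block changed no call of a member. Deviations of same-numbered mice correlated at 0.12, -0.23 and -0.43 for numbers 0, 1 and 2, and those of differently numbered mice at -0.37 to 0.46. With 3 mice a group these values cannot decide whether mice of the same number belong together. With 3 mice a group and an unknown number of reads, changes of the clock genes can go undetected. Even *Nr1d1*, at a log2 fold change of -1.09, was not called.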
